A study of Rattus norvegicus with 22 samples.

Results

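Buthionine sulfoximine (BSO) given before a spinal cord contusion was compared with the same contusion left untreated, in rat spinal cord (Rattus norvegicus). The comparison holds every array titled BSO without tempol and every array titled contusion without a treatment, which gave 3 BSO arrays and 2 untreated contusion arrays out of 22 in the series. Per the labels, both groups received a contusion at thoracic level 10 from a 10 g weight with a 2.5 mm tip that fell 25 mm, and cord was collected 24 h later. BSO was injected intraperitoneally at 150 mg/kg, 24 h before the injury. Another pair of groups differed by the same BSO injection. There, 3 samples had BSO and then tempol, a nitroxide radical scavenger, at 275 mg/kg 20 min after the injury, and 3 had tempol alone. The other 11 arrays were 2 of contusion with clenbuterol, 3 of contusion with X-rays, 3 of laminectomy and 3 of normal cord, and they served to estimate the spread. The labels used here give no strain, sex or age, no vehicle injection for the untreated contusion and no BSO without an injury. They do not say whether an array stands for 1 animal or a pool, or how long a piece of cord was taken, so p-values here reflect only how far these samples spread, which may be technical.

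Glutathione is the main small thiol of cells. It is made from glutamate, cysteine and glycine by glutamate-cysteine ligase, whose catalytic and modifier subunits are Gclc and Gclm, and then by glutathione synthetase, Gss. BSO blocks the ligase, so cells lose glutathione as it is used up. Glutathione peroxidases and transferases spend it on peroxides and electrophiles, and the transcription factor NRF2 raises many of the genes that make and use it when thiols are oxidized. After a contusion, oxidants come from released iron, damaged mitochondria and invading phagocytes, and glutathione depletion is used to test how far injury and treatment act through that defence. Glutathione itself is not an RNA and was not measured by these arrays.

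Each array reports a signal, a fluorescence intensity on a linear scale, for 31042 probe sets after the array maker's controls were left out, and differences below are BSO minus untreated contusion on the log2 scale, where 1 is a factor of 2. The 3 BSO arrays correlated with one another at 0.728 to 0.761 over all probe sets, the 2 contusion arrays at 0.785, and BSO arrays with contusion arrays at 0.754 to 0.808, so arrays of the same group were no more alike than arrays of different groups. The log2 ratio of 3' to 5' signal for GAPDH, a measure of RNA degradation, was 0.55, 0.63 and 0.58 in BSO arrays and 0.27 and 0.33 in contusion arrays, and the groups did not overlap. For actin the ratio was 0.14, 0.40 and 0.12 in BSO arrays and -0.06 and 0.40 in contusion arrays, which overlapped. The hexokinase ratio was 2.48, -0.12 and -1.64 in BSO arrays and -2.01 and 3.03 in contusion arrays, which also overlapped. The part of RNA quality in the results was not tested. Gfap, the astrocyte filament, was bright in both groups, at 10695.8, 11425.3 and 13148.7 in BSO arrays and 12101.0 and 12442.3 in contusion arrays. Mbp, myelin basic protein, was also bright, at 19105.8, 36012.9 and 51276.3 in BSO arrays and 22147.7 and 40004.4 in contusion arrays.

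No gene passed the test for a difference between BSO and untreated contusion. Of 31042 probe sets 0 (0.0%) had an adjusted p under 0.05 by limma with Benjamini-Hochberg adjustment, and the lowest adjusted p was 0.0987. At an unadjusted limma p under 0.05 there were 1074 probe sets (3.46%), 585 higher (1.88%) and 489 lower (1.58%) in BSO, fewer than the 1552.1 that an even spread of p-values would place there. Over the 14217 genes, each read by its brightest probe set, 6860 (48.3%) were higher and 7357 (51.7%) lower in BSO, with a median difference of -0.02. All 3 BSO arrays were above both contusion arrays in 1175 genes (8.26%) and below both in 1199 (8.43%).

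**Figure D1:**
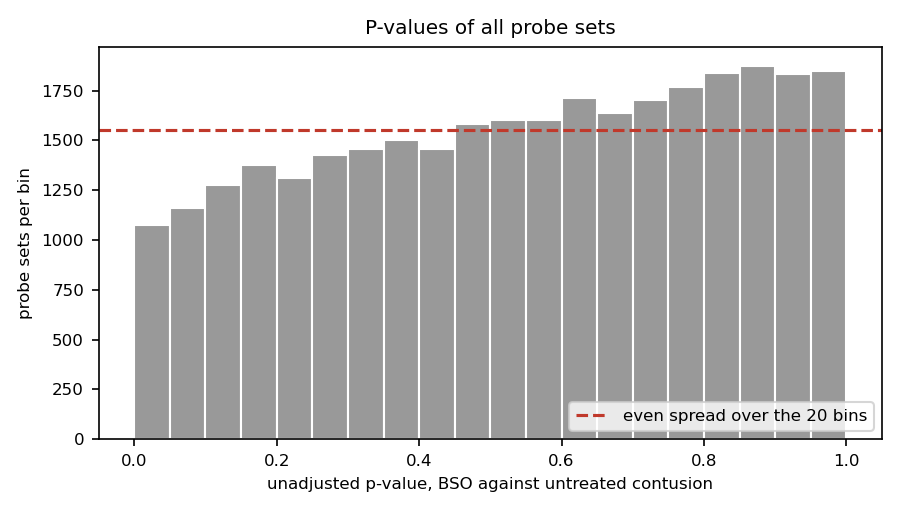
Histogram of the unadjusted limma p-values of all 31042 probe sets for BSO against untreated contusion (x axis, unadjusted p in bins of equal width; y axis, number of probe sets per bin). The dashed line marks the 1552.1 probe sets per bin of an even spread; the first bin, up to 0.05, holds 1074 and the last 1848.

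These figures do not show that BSO left the genes alone, because 5 arrays leave wide intervals. The 95% interval of a gene's difference reached a median of 1.47 to either side on the log2 scale. The interval lay wholly within 1 log2 unit of 0 for 357 genes (2.51%) and within 2 units for 7573 (53.3%). Bright genes were measured more closely: that reach was 1.10 for the 919 genes with a mean signal of at least 1000, 1.35 for the 9667 genes between 100 and 1000, and 1.89 for the 3631 dimmer ones.

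The genes that build glutathione and supply its parts lay on both sides of 0. In a list of 18 genes for glutathione synthesis and cystine supply, 12 were higher and 6 lower in BSO, the median difference was 0.18 against -0.02 over all genes, and no member had an unadjusted p under 0.05, against 1.7% of all genes for higher and 1.52% for lower. The differences ran from -0.79 to 0.81.

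Gclc, the catalytic subunit of the enzyme that BSO inhibits, gave signals of 696.8, 696.5 and 1145.0 in BSO arrays and 837.8 and 612.6 in contusion arrays. Its difference was 0.20 ± 0.54 (standard error, 3 against 2 arrays), with a 95% interval from -0.94 to 1.33, and the groups overlapped. Gclm, the modifier subunit, gave 59.8, 185.7 and 166.1 in BSO arrays and 124.9 and 196.8 in contusion arrays, and 1 BSO array stood well below the other 4. The Gclm difference was -0.35 ± 0.65 (95% interval -1.72 to 1.01). Gss, the second enzyme, gave 283.6, 384.5 and 130.9 in BSO arrays and 393.8 and 212.4 in contusion arrays, a difference of -0.25 ± 0.65 (95% interval -1.62 to 1.11) with groups that overlapped.

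Supply of cystine, a source of the rate-limiting amino acid cysteine, runs through the exchanger of Slc7a11 and its heavy chain Slc3a2. Slc7a11 gave 140.0, 298.2 and 363.7 in BSO arrays and 200.7 and 302.7 in contusion arrays, a difference of 0.01 ± 0.68 (95% interval -1.41 to 1.42). Slc3a2 gave 1284.0, 2058.1 and 2005.0 in BSO arrays and 2020.7 and 2327.7 in contusion arrays, a difference of -0.32 ± 0.40 (95% interval -1.15 to 0.52). Both overlapped between the groups. Slc1a1 carries glutamate and cysteine into neurons. It was the only 1 of 18 members with all BSO arrays above the contusion arrays, against 8.26% of all genes. Its signals were 410.4, 348.5 and 352.5 against 273.4 and 277.1, and its difference was 0.42 ± 0.62. Dpep1, a dipeptidase that splits cysteinylglycine, was the only 1 of 18 with all BSO arrays below, against 8.43% of all genes. It gave 312.5, 302.7 and 113.0 in BSO arrays and 443.7 and 328.3 in contusion arrays (-0.79 ± 0.89). The enzymes that make cysteine from methionine were higher on average but no further than their errors: Cbs differed by 0.54 ± 0.73, and Cth, dim at 7.3, 29.3 and 39.5 in BSO arrays and 6.2 and 21.8 in contusion arrays, by 0.81 ± 0.84.

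The enzymes that break glutathione down outside and inside the cell were likewise within their errors. Ggt1, the gamma-glutamyltransferase of the cell surface, differed by 0.42 ± 0.71, Ggt5 by 0.72 ± 0.92 and Ggt7 by 0.16 ± 0.53. Anpep, an aminopeptidase that finishes the breakdown, differed by -0.02 ± 0.59. Chac1, an intracellular glutathione-degrading enzyme induced by amino acid stress, gave 1075.9, 924.7 and 897.7 in BSO arrays and 1282.5 and 523.6 in contusion arrays, a difference of 0.23 ± 0.50. The 2 contusion arrays bracketed all 3 BSO arrays for this gene. Ggct and Oplah, which recycle the glutamyl part, differed by 0.34 ± 0.56 and -0.17 ± 0.99. Abcc1, an exporter of glutathione conjugates, differed by 0.05 ± 0.76, and the cystine transporter subunit Slc7a9 by 0.19 ± 0.95.

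**Figure D2:**
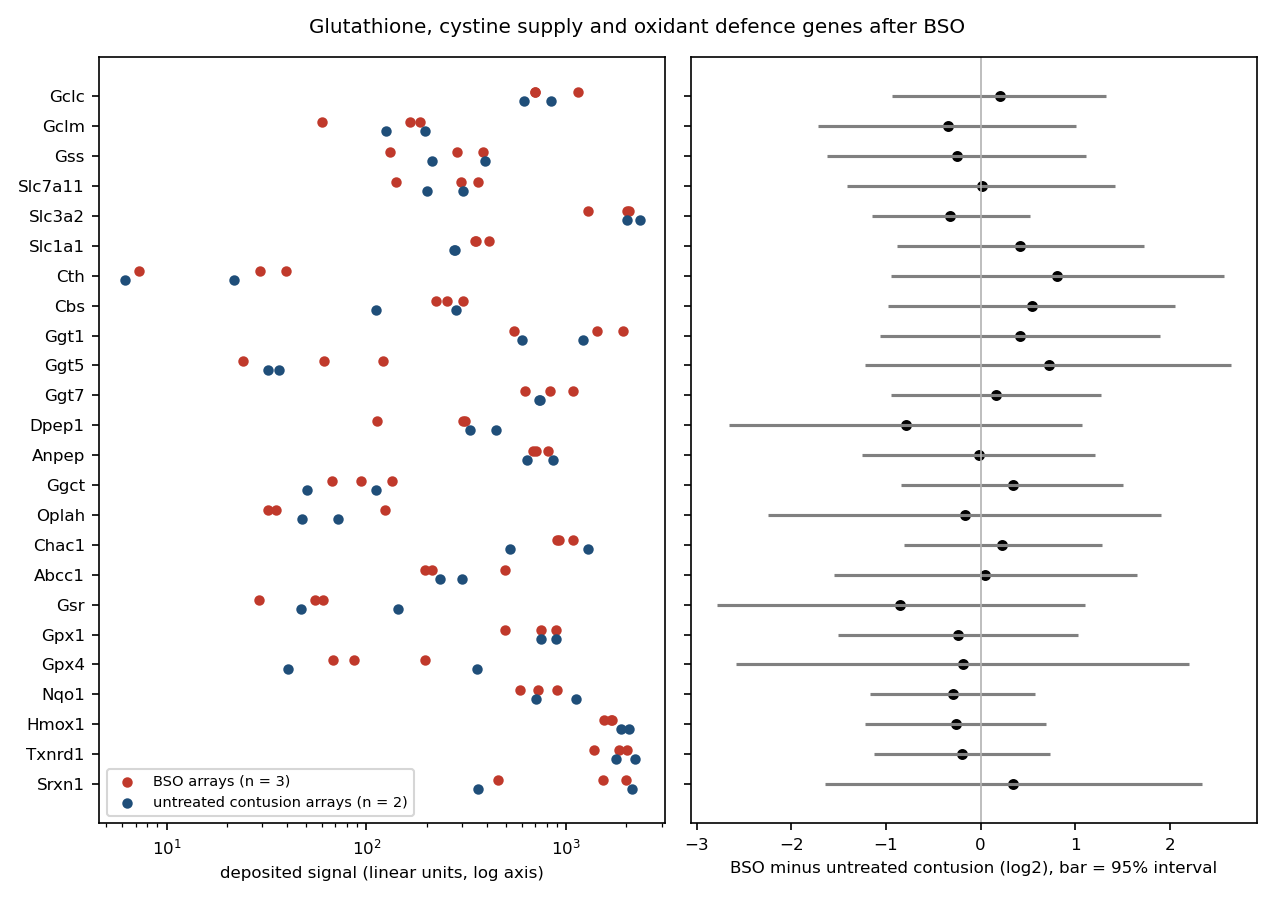
Left, deposited signal (linear units on a log axis) of glutathione, cystine supply and oxidant defence genes, with red points for the 3 BSO arrays and blue points for the 2 untreated contusion arrays. Right, the log2 difference of BSO minus untreated contusion (points) with its 95% interval (bars); every interval crosses 0, and that of Gclc runs from -0.94 to 1.33.

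Genes that spend and recycle glutathione gave a median difference of -0.24 over 30 measured members, with 10 higher and 20 lower in BSO. A single member had an unadjusted limma p under 0.05 in each direction, against 1.7% of all genes for higher and 1.52% for lower. Gsta3, an alpha-class glutathione transferase, gave 38.9, 32 and 7.6 in BSO arrays and 207.5 and 130.0 in contusion arrays, and the groups did not overlap. Its difference was -2.96 ± 0.95 (limma, adjusted p = 1.0). The other 17 arrays of the series covered 10.5 to 299.7. BSO array 3 lay below that range, and the remaining BSO and contusion arrays lay inside it. Gstz1, the transferase of tyrosine breakdown, gave 237.8, 177.3 and 280.9 in BSO arrays and 119.7 and 60.4 in contusion arrays (1.42 ± 0.67, limma, adjusted p = 1.0). Gstt1, a theta-class transferase, overlapped between the groups, with a difference of 1.09 ± 0.65. Gsr, which reduces oxidized glutathione, differed by -0.85 ± 0.93. The peroxidases Gpx1 and Gpx4, the second of which protects membrane lipids, differed by -0.24 ± 0.61 and -0.19 ± 1.14.

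The wider oxidant defence held no gene past the threshold either. Of 21 NRF2 target genes 8 were higher and 13 lower, with a median of -0.13. Hmox1, heme oxygenase, gave 1550.6, 1669.7 and 1697.7 in BSO arrays and 2058.0 and 1877.4 in contusion arrays. All BSO arrays were thus below both contusion arrays, by a difference of -0.26 ± 0.45 with a 95% interval from -1.22 to 0.69. Nqo1, a quinone reductase, differed by -0.29 ± 0.42 (95% interval -1.17 to 0.58), and Txnrd1, thioredoxin reductase, by -0.20 ± 0.44 (95% interval -1.13 to 0.73). Srxn1, which repairs overoxidized peroxiredoxins, gave 454.2, 1987.2 and 1531.9 in BSO arrays and 2126.6 and 362.4 in contusion arrays, and was too uneven within both groups to place (0.34 ± 0.95). The largest NRF2-list difference by p was Akr7a3, an aldehyde reductase, at 116.2, 71.2 and 49.5 in BSO arrays and 280.2 and 185.6 in contusion arrays (-1.62 ± 0.67, limma, adjusted p = 1.0). Osgin1 and the malic enzyme Me1 followed at -0.84 ± 0.58 and -0.79 ± 0.68.

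Among 17 superoxide, peroxide and thioredoxin enzymes 8 were higher and 9 lower, with a median of -0.18. The 3 members with the smallest p-values were Prdx3, the mitochondrial peroxiredoxin, at 1.00 ± 0.68, Sod1, the cytosolic superoxide dismutase, at -1.30 ± 0.91, and Cat, catalase, at -0.74 ± 0.57. The Sod1 value rests on BSO array 1, which read 50.5 against 688.0 and 662.9 in the other BSO arrays and 627.3 and 785.7 in the contusion arrays. Of 10 metallothionein and metal-handling genes 6 were higher and 4 lower (median 0.18). Mt2A, a metal-binding thiol protein, was among the brightest at 10075.6, 29204.4 and 17939.4 in BSO arrays and 15236.4 and 12911.6 in contusion arrays, a difference of 0.31 ± 1.06. The groups overlapped for Mt2A, as they did for Mt1 (-0.24 ± 0.78), Mt3 (0.48 ± 0.90), the iron-regulating peptide gene Hamp (0.66 ± 1.10) and the siderophore binder Lcn2 (0.42 ± 0.66).

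In the ATF4 and unfolded protein response list 9 of 22 genes were higher and 13 lower, with a median of -0.22. Herpud1, a member of the machinery that removes misfolded proteins from the endoplasmic reticulum, had the smallest p and is described with the ranked genes below. Trib3, a pseudokinase induced by ATF4, gave 87.1, 234.3 and 353.4 in BSO arrays and 79.3 and 72.7 in contusion arrays, a difference of 1.35 ± 0.84 in the opposite direction. Dnajc3, an inhibitor of the kinase PERK, differed by -1.36 ± 0.94. Atf3, a stress transcription factor, gave 76.9, 81.6 and 92.5 in BSO arrays and 80.8 and 72.6 in contusion arrays (0.12 ± 1.05). Of 12 heat shock proteins 4 were higher and 8 lower (median -0.09). Dnajb1, the partner of HSP70, differed by 1.56 ± 1.13, the co-chaperone Bag3 by -0.48 ± 0.52 and the collagen chaperone Serpinh1 by -0.34 ± 0.47.

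Damage and death genes were divided between both directions. Of 12 genes of the p53 and damage response 5 were higher and 7 lower (median -0.33, and 0.10 when a gene's probe sets were averaged), with 1 higher and 2 lower at an unadjusted p under 0.05, against 1.7% and 1.52% of all genes. Tp53inp1, a p53 target active in autophagy, gave 21.2, 12.5 and 10.4 in BSO arrays and 42.2 and 79.4 in contusion arrays (-2.05 ± 0.62, limma, adjusted p = 1.0). Plk3, a stress kinase, differed by -1.73 ± 0.69 without overlap. Sesn1, a sestrin that restrains mTORC1, went the other way by 1.83 ± 0.69, a value set by contusion array 2, which read 18.8 against 145.6 in contusion array 1 and 170.8, 144.6 and 262.1 in BSO arrays. Of 20 cell death genes 13 were higher and 7 lower (median 0.18). None had an unadjusted p under 0.05, against the same 1.7% and 1.52% of all genes. Casp8, the initiator caspase of death receptors, gave 41.0, 23.6 and 57.0 in BSO arrays and 83.4 and 98.1 in contusion arrays (-1.25 ± 0.67), Casp4 differed by -1.47 ± 0.90 and Casp6 by 1.05 ± 0.69.

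Acute injury genes were bright in both groups. Ccl2, the monocyte chemokine, gave 1454.9, 2479.6 and 2988.2 in BSO arrays and 2239.6 and 2307.0 in contusion arrays, against 23.2 to 502.7 in the 6 uninjured arrays. Its difference between BSO and contusion was -0.04 ± 0.70 (95% interval -1.50 to 1.42). Timp1, an inhibitor of metalloproteinases, gave 3366.1, 6721.5 and 10060.8 in BSO arrays and 5995.0 and 9570.7 in contusion arrays, a difference of -0.31 ± 0.70. Uninjured arrays covered 69.4 to 4954.9 for Timp1, and BSO array 1 lay inside that range. Of 25 chemokine genes 10 were higher and 15 lower, with a median of -0.13 and 2 higher at an unadjusted p under 0.05, against 1.7% of all genes. Ccl5, which draws T cells and monocytes, gave 370.9, 263.9 and 302.0 in BSO arrays and 136.6 and 31.4 in contusion arrays (2.24 ± 0.83, limma, adjusted p = 1.0). Cxcl3, a neutrophil chemokine, gave 859.0, 127.3 and 260.3 in BSO arrays and 55.0 and 88.5 in contusion arrays (2.13 ± 0.85, limma, adjusted p = 1.0), and Ccl4 differed by 1.14 ± 0.55 with overlap. For Ccl5 the other 17 arrays covered 84.2 to 865.8, so contusion array 2 was below all of them and the BSO arrays were within their range.

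Of 27 cytokines and cytokine regulators 17 were higher and 10 lower (median 0.11). Tnf, the early inflammatory cytokine of microglia and macrophages, gave 85.0, 129.5 and 94.9 in BSO arrays and 47.1 and 37.3 in contusion arrays without overlap (1.28 ± 0.56, limma, adjusted p = 1.0). Ifng, the T and NK cell cytokine, was uneven at 202.3, 167.9 and 67.5 in BSO arrays and 18.9 and 64.4 in contusion arrays (1.92 ± 1.11). Tnfaip6, an anti-inflammatory matrix protein, was below contusion in all BSO arrays (-0.76 ± 0.47). Adhesion and endothelial activation genes gave a median of 0.03 over 15, with 8 higher and 7 lower, and Nos2, Vcam1 and Ptgs2, the inducible cyclooxygenase, differed by 1.10 ± 0.80, 0.38 ± 0.42 and -0.58 ± 0.66. Matrix remodelling genes gave a median of 0.01 over 24, with 12 in each direction, and named differences of -0.64 ± 0.56 for Lox, the collagen cross-linking oxidase, and -0.85 ± 0.83 for Sparc.

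Immediate early genes gave a median of -0.06 over 22, with 8 higher and 14 lower. Ier2 and Myc were lower at an unadjusted p under 0.05, which is 2 of 22 genes against 1.52% of all genes. Myc, a growth transcription factor, gave 188.2, 65.8 and 194.7 in BSO arrays and 439.3 and 880.1 in contusion arrays (-2.21 ± 0.66, limma, adjusted p = 1.0). Contusion array 2 was above all 17 other arrays for Myc, which covered 114.5 to 713.8. Egr3 differed by 0.83 ± 0.65. In the hypoxia and glycolysis list 14 of 17 genes were lower in BSO, with a median of -0.23. No member had an unadjusted p under 0.05, against 1.7% of all genes for higher and 1.52% for lower. All BSO arrays were below both contusion arrays for P4ha1, a collagen prolyl hydroxylase (-1.15 ± 0.58), Hk1 (-0.86 ± 0.80), Pfkfb3, a regulator of glycolytic flux (-0.51 ± 0.45), and Pgk1 (-0.42 ± 0.44), which is 4 of 17 genes against 8.43% of all genes. The summed signal of this list was 14200 to 16400 in BSO arrays and 16300 to 19100 in contusion arrays, and with tempol in both groups the median was -0.01.

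Cell cycle genes gave a median of 0.06 over 27 (14 higher, 13 lower). Ube2c, a ubiquitin-conjugating enzyme of mitotic exit, gave 298.1, 528.1 and 622.0 in BSO arrays and 99.5 and 58.7 in contusion arrays (2.59 ± 1.04, limma, adjusted p = 1.0), while Ccnb1, the mitotic cyclin, was below contusion in all BSO arrays (-0.80 ± 0.57) and Mcm3, of the replicative helicase, above in all (1.20 ± 0.70). Members of the same cycle machinery thus lay on both sides. Cholesterol synthesis genes gave a median of 0.23 over 16 (9 higher, 7 lower). Among them Fdps, which makes farnesyl diphosphate, differed by 1.45 ± 0.65 (limma, adjusted p = 1.0), Mvd by 1.10 ± 0.62 and Idi1 by -0.67 ± 0.41, although all 3 stand in 1 pathway. Oxidative phosphorylation subunits gave a median of 0.02 over 29 (15 higher, 14 lower), with Uqcrfs1 at -0.71 ± 0.50, Uqcrh at 0.51 ± 0.44 and Ndufb6 at -0.91 ± 0.81.

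Markers of infiltrating and phagocytic macrophages shared the lowest list median with Schwann cell genes. Of 18 measured markers 15 were lower in BSO and 3 higher, with a median of -0.51 against -0.02 over all genes. No marker had an unadjusted p under 0.05, against 1.7% of all genes for higher and 1.52% for lower. In 5 of the 18 all BSO arrays were below both contusion arrays, against 8.43% of all genes. Arg1, arginase of repair-type macrophages, gave 425.4, 197.8 and 759.3 in BSO arrays and 894.6 and 778.4 in contusion arrays (-1.06 ± 0.52, 95% interval -2.16 to 0.03). Spp1, osteopontin, gave 1477.7, 1622.5 and 1840.0 in BSO arrays and 2615.9 and 2465.0 in contusion arrays (-0.63 ± 0.46). The groups did not overlap for either gene, though BSO array 3 was close to contusion array 2 for Arg1. Lgals3 (-0.77 ± 0.65), Lyz2 (-0.49 ± 0.41) and Apoe (-0.65 ± 0.61) were also below contusion in every BSO array, and Cd163, a scavenger receptor, differed by -1.82 ± 1.01 with overlap. The summed signal of the 18 markers was 18300 to 28100 in BSO arrays and 30100 to 31300 in contusion arrays.

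The same markers read differently in other arrays. With tempol given to both groups, the median of the same markers for BSO plus tempol minus tempol was 0.24, and only 6 of 18 had the same direction. Against the mean of 4 contused groups without BSO (untreated, clenbuterol, X-ray and tempol, an alternative chosen after seeing the data) the median was -0.08, with 6 higher and 12 lower. In whole cord a lower signal of a cell type's markers can come from fewer such cells or from less RNA per cell, and these cannot be told apart here. Markers of homeostatic and broad microglia gave a median of 0.12 over 13 (8 higher, 5 lower), with Csf1r at 0.98 ± 0.63, Cx3cr1 at 1.07 ± 0.73 and the complement gene C1qc at -0.67 ± 0.51. Neutrophil markers gave a median of -0.20 over 10 (4 higher, 6 lower), with the receptor Cxcr2 at -0.56 ± 0.58, Hp at -0.82 ± 0.99 and Mmp8 at 0.68 ± 0.92. Markers of T, B and NK cells gave 0.28 over 15 (10 higher, 5 lower), with the T cell receptor chain Cd3e at 1.67 ± 1.13, Cd8a at 1.08 ± 0.56 and Gzmb at 1.52 ± 1.22.

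Neuron markers leaned the other way. Of 27 measured 19 were higher and 8 lower in BSO, with a median of 0.26, and 6 had all BSO arrays above both contusion arrays, against 8.26% of all genes. At an unadjusted p under 0.05 there were 2 higher and 1 lower, against 1.7% and 1.52% of all genes. Tubb3, neuronal tubulin, gave 937.3, 812.0 and 919.9 in BSO arrays and 416.1 and 485.0 in contusion arrays (0.98 ± 0.44, limma, adjusted p = 1.0), and both contusion arrays were below all 17 other arrays, which covered 516.5 to 1283.8. Nefh, the heavy neurofilament of large axons, gave 2380.9, 4460.7 and 4546.7 in BSO arrays and 797.1 and 2704.0 in contusion arrays with overlap (1.31 ± 0.62, limma, adjusted p = 1.0). Gad2, which makes GABA, was lower at 25.7, 204.9 and 148.8 in BSO arrays and 371.3 and 351.0 in contusion arrays (-1.97 ± 0.93, limma, adjusted p = 1.0). The median of the list was 0.00 without contusion array 1 and 0.59 without contusion array 2, and against the 4 contused groups without BSO it was 0.08.

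The other cell types stayed near the median of all genes or rested on few genes. Oligodendrocyte and myelin genes gave 0.15 over 16 (9 higher, 7 lower), with Ermn at 1.54 ± 0.64 (limma, adjusted p = 1.0), Ugt8 of galactolipid synthesis at -0.65 ± 0.40 and Gal3st1, which sulphates those lipids, at -1.54 ± 1.04. Mbp differed by 0.14 ± 0.57. Oligodendrocyte progenitor genes gave -0.20 over 9 (4 higher, 5 lower), with Olig2 at 1.11 ± 0.83, Lhfpl3 at 0.90 ± 0.52 and Pdgfra at -0.88 ± 0.74. Astrocyte genes gave 0.08 over 16 (8 higher, 8 lower), with Aldh1l1 at 1.77 ± 0.98, Gjb6 at -1.39 ± 0.94 and Fgfr3 at 0.46 ± 0.41. Reactive astrocyte genes gave -0.05 over 19 (6 higher, 13 lower), with Cd44 at -1.19 ± 0.88, Nes at -0.54 ± 0.72 and Steap4 at 0.35 ± 0.43, and Gfap differed by -0.07 ± 0.42 (95% interval -0.96 to 0.82).

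Endothelial and pericyte genes gave 0.12 over 18 (11 higher, 7 lower), with the tight junction gene Cldn5 at 1.15 ± 0.53 (limma, adjusted p = 1.0), Vwf at -1.15 ± 0.96 and Rgs5 at 0.56 ± 0.51. Meningeal and fibroblast genes gave 0.08 over 14 (9 higher, 5 lower). In that list Slc6a13, a GABA transporter of the meninges, gave 277.5, 288.2 and 272.2 in BSO arrays and 162.8 and 64.4 in contusion arrays (1.45 ± 0.44, limma, adjusted p = 1.0), while Igf2 and Ogn differed by -1.45 ± 0.77 and 1.41 ± 0.82 with overlap. Ependymal genes gave the highest median, 0.65 over 9 (5 higher, 4 lower), from the cilium genes Drc12 (1.40 ± 0.96), Cfap126 (1.36 ± 0.99) and Dynlrb2 (0.65 ± 0.50). The ependymal median was -0.02 with the filter on low signal, and -0.62 with tempol in both groups. Schwann cell and nerve root genes gave -0.51 over only 7 (2 higher, 5 lower), and Ngfr, the low-affinity neurotrophin receptor, was their only member with an unadjusted p under 0.05, on the higher side (1.7% of all genes), at 146.0, 36.3 and 66.4 in BSO arrays and 21.2 and 13.9 in contusion arrays (2.04 ± 0.68, limma, adjusted p = 1.0). Prx and Mpzl2 differed by -1.53 ± 1.15 and -0.92 ± 0.85.

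The 2 tissues that blood or dissection can add were also read. Erythroid genes gave -0.06 over 7 (3 higher, 4 lower), with a summed signal of 5680 to 7280 in BSO arrays and 4780 to 9600 in contusion arrays, and Epb42, Gata1 and Slc4a1 differed by -1.50 ± 0.90, 0.98 ± 0.71 and -0.40 ± 1.08. Skeletal muscle genes gave -0.03 over 14 (7 higher, 7 lower), with a summed signal of 3770 to 9070 in BSO arrays and 2640 to 6700 in contusion arrays, and Myl11, Tnnt3 and Actn3 differed by -1.90 ± 1.08, 0.79 ± 0.73 and -1.10 ± 1.09.

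**Figure D3:**
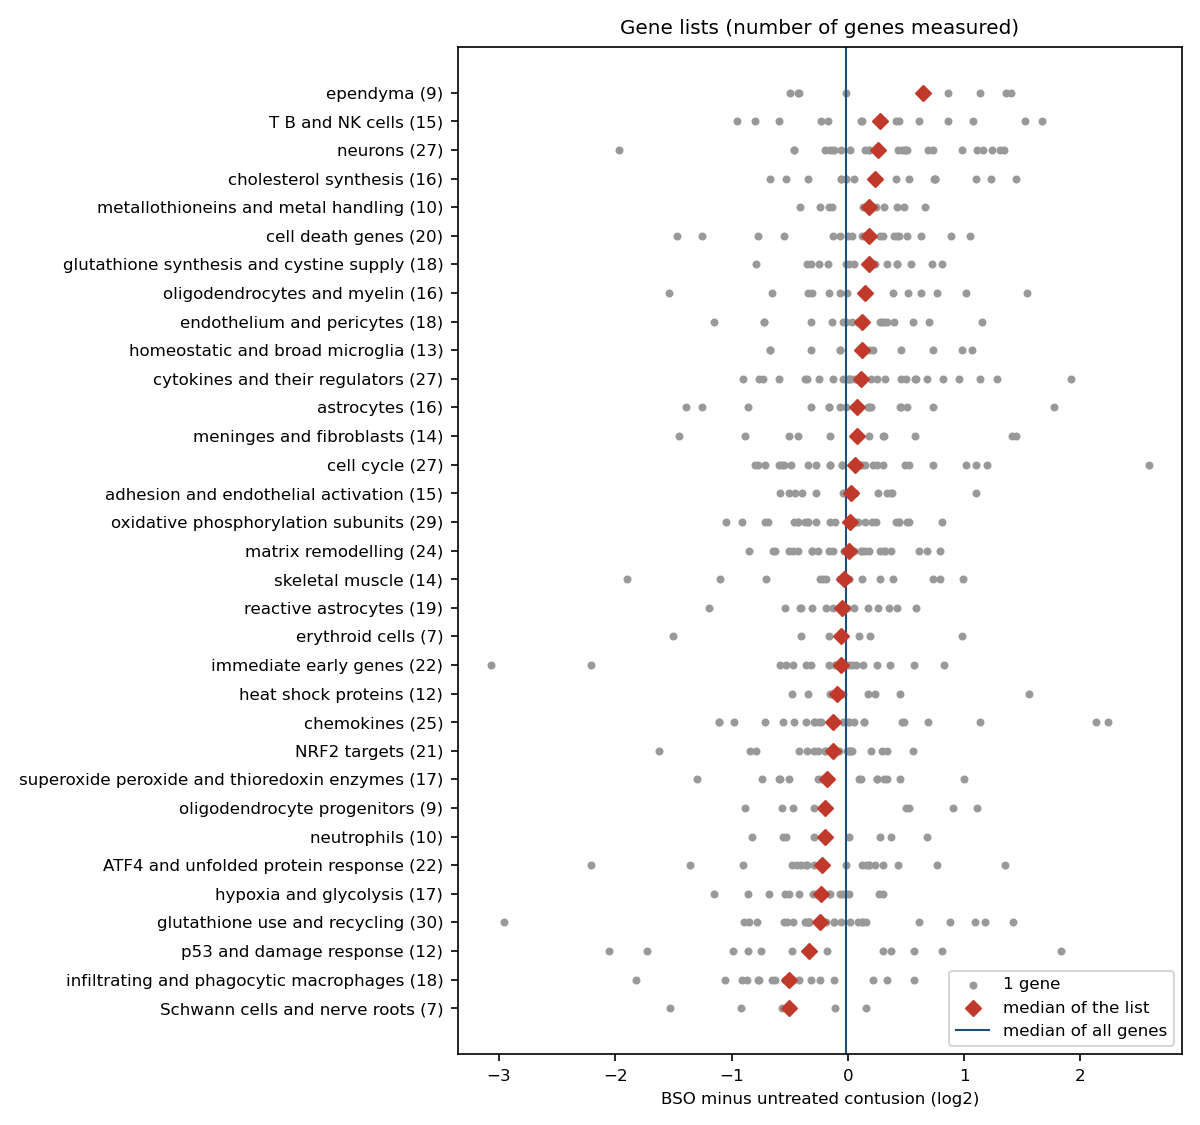
Log2 difference of BSO minus untreated contusion (x axis) for the measured genes of each of 33 lists, ordered by the list median (rows; number of genes measured in brackets). Gray points are single genes, diamonds are list medians and the vertical line is the median of all 14217 genes, -0.02; the medians run from -0.51 for macrophage and Schwann cell genes to 0.65 for ependymal genes, inside a scatter of single genes that is wider than the shift in each list. With the filter on low signal the ependymal median is -0.02.

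The genes nearest to a difference were ranked by limma p among probe sets with 1 gene symbol, a mean signal of at least 100 in the higher group and arrays that did not overlap, 15 in each direction. All BSO arrays were above both contusion arrays in 8.87% of probe sets and below both in 7.92%, and the ranking used that separation. The ranked genes are given as values, since none passed: the adjusted p was 0.968 to 1.0 for the 15 higher genes and 0.881 to 1.0 for the 15 lower ones. The differences were 1.87 to 3.80 for the higher genes and, in size, 1.70 to 3.52 for the lower ones.

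Fbxo3, the substrate receptor of an SCF ubiquitin ligase, had the smallest p among named genes. It gave 22.2, 28.5 and 25.8 in BSO arrays and 134.7 and 149.6 in contusion arrays, and the other 17 arrays covered 53 to 349.6. The BSO arrays were below every other array of the series, and the difference was -2.48 ± 0.49 (limma, adjusted p = 0.881). Rcan1, an inhibitor of the phosphatase calcineurin, gave 42.9, 91.0 and 47.1 in BSO arrays and 336.5 and 239.4 in contusion arrays, with 114.9 to 466.2 in the other 17 arrays. Here too all BSO arrays lay below all others, and the difference was -2.32 ± 0.50 (limma, adjusted p = 0.968). Against the mean of the 4 contused groups without BSO, the alternative chosen after seeing the data, Rcan1 fell by 2.48 on the log2 scale with a standard error of 0.36 (limma, adjusted p = 0.0472), the single probe set past the threshold there. Over its alternatives the adjusted p of Rcan1 ran from 0.0472 to 1.0.

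Wdr24, a subunit of the GATOR2 complex that signals amino acids to mTORC1, gave 64.4, 122.0 and 129.1 in BSO arrays and 732.8 and 410.3 in contusion arrays, with 182.8 to 757.3 in the other arrays (-2.45 ± 0.54). Herpud1 gave 36.5, 18.1 and 32.5 in BSO arrays and 122.5 and 134.9 in contusion arrays, with 42.6 to 224.7 in the others (-2.21 ± 0.51). Gpr135, an orphan receptor, gave 99.2, 98.6 and 98.8 in BSO arrays and 294.1 and 352.5 in contusion arrays, with 109.5 to 659.7 in the others (-1.70 ± 0.46). For these 3 genes, as for Fbxo3 and Rcan1, every BSO array was below every array of the other 7 groups, and they are the 5 of the 15 lower genes of which this holds. Over all 14217 genes, each read by its brightest probe set, 9 had all BSO arrays below and 6 had all BSO arrays above the other 19 arrays. The ranked probe set of Fbxo3 is not its brightest, so it does not enter that count.

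In other ranked genes the contusion arrays were the ones that stood out. Spns1, a lysosomal lipid transporter, gave 79.4, 105.2 and 109.1 in BSO arrays and 552.9 and 976.2 in contusion arrays (-2.92 ± 0.73), and the other 17 arrays covered 64.5 to 399.3 with a median of 105.8. Trem2, a lipid receptor of microglia, gave 21.9, 22 and 16.5 in BSO arrays and 209.4 and 215.9 in contusion arrays (-3.41 ± 0.93), with 19.9 to 182.6 and a median of 35.1 in the others. The BSO arrays of Spns1 sat with the rest of the series. Those of Trem2 lay at its low end, under the lowest uninjured array (27.4), and the lowest, 16.5, was below all 17 others. The brighter probe set of Trem2 differed by 0.18. Both contusion arrays were outside the range of the other 17 in 6 of the 15 higher and 2 of the 15 lower genes. All BSO arrays were outside it in 0 of the higher and 5 of the lower genes. A group of 2 arrays falls outside a range more readily than 1 of 3, and the ranking itself required separation. The counts of the 2 groups therefore cannot be set against each other. Over all genes both contusion arrays were above all 17 others in 54 and below in 55. All BSO arrays were above the same 17 in 12 and below in 12. Each gene is read there by its brightest probe set, which for some ranked genes, Trem2 among them, is not the ranked one.

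The remaining lower genes had the following values. Shc2, an adaptor of receptor tyrosine kinases in neurons, gave 7.2, 13.8 and 19.9 in BSO arrays and 126.0 and 165.5 in contusion arrays (-3.52 ± 0.82). Ier2, an immediate early gene, gave 24.7, 29.2 and 27.7 in BSO arrays and 185.4 and 279.5 in contusion arrays (-3.07 ± 0.82). For Ier2 uninjured arrays covered 14.5 to 84.2 with a median of 39.8. The 11 other treated contused arrays covered 17.9 to 222.4 with a median of 46.6, so most of them were low too. Camkv, a kinase-like protein of synaptic vesicles, gave 85.1, 26.9 and 28.3 in BSO arrays and 273.2 and 243.5 in contusion arrays (-2.68 ± 0.66). That the BSO arrays lay below both contusion arrays in each of these genes follows from the ranking, which required it. Nlgn2, an adhesion molecule of inhibitory synapses, differed by -2.07 ± 0.56, Sec61a1, the channel of the endoplasmic reticulum translocon, by -2.86 ± 0.83, Pigo, an enzyme of lipid anchor synthesis, by -1.89 ± 0.54, Car1, a carbonic anhydrase of red cells, by -2.63 ± 0.70, and Ttc22 by -3.01 ± 0.84.

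Among the higher genes, Mafk, a small MAF protein that pairs with NRF2 on DNA, had the largest difference. It gave 96.1, 146.0 and 426.2 in BSO arrays and 14 and 12.1 in contusion arrays, with 16.4 to 178.5 in the other 17 arrays (3.80 ± 0.93, limma, adjusted p = 1.0). Both contusion arrays were below every other array, and 1 BSO array was above the highest of them. Cdh22, a cadherin of the nervous system, gave 273.8, 260.4 and 377.7 in BSO arrays and 64.6 and 23.2 in contusion arrays, with 70.6 to 695.4 in the others (2.95 ± 0.66). Lsm12 gave 146.6, 201.4 and 178.3 in BSO arrays and 18.8 and 39.1 in contusion arrays, with 46.2 to 376.8 in the others (2.68 ± 0.62). For Cdh22 and Lsm12 the BSO arrays lay inside the range of the series and the contusion arrays under it.

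Trpc4ap, an adaptor of a cullin ubiquitin ligase, was the brightest ranked gene, at 1352.2, 2253.5 and 2226.2 in BSO arrays and 274.3 and 930.4 in contusion arrays (1.91 ± 0.55), with 1011.7 to 3747.0 in the others. Plagl1, an imprinted zinc finger factor, gave 330.1, 252.4 and 379.1 in BSO arrays and 109.4 and 68.2 in contusion arrays (1.87 ± 0.52). Rpap1, which binds RNA polymerase II, gave 393.7, 344.7 and 492.0 in BSO arrays and 93.5 and 33.2 in contusion arrays (2.86 ± 0.81). The ranking required the groups to be apart, and in each of these 3 genes contusion array 1 or 2 was the lowest array. The others were Zfp593 (2.42 ± 0.54), the ubiquitin ligase Znrf2 (2.80 ± 0.69), Casd1, which acetylates sialic acids (2.95 ± 0.73), the tubulin cofactor Tbcc (2.83 ± 0.75), Ano8 (3.32 ± 0.91), the mRNA export adaptor Fyttd1 (2.11 ± 0.58), the magnesium transporter Slc41a1 (2.57 ± 0.71), Adap1 (2.22 ± 0.62) and Mtcl2 (3.22 ± 0.91).

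**Figure D4:**
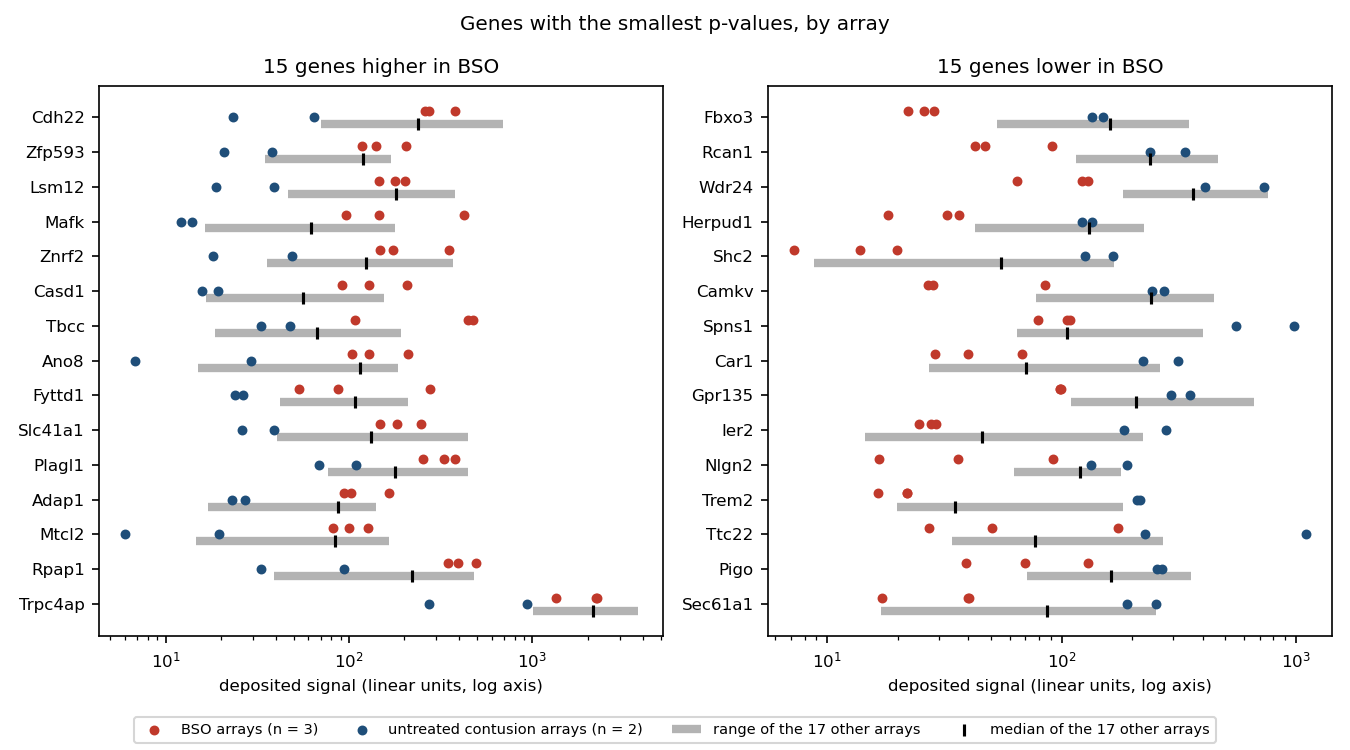
Deposited signal (linear units on a log axis) of the 15 genes with the smallest p-values among those higher (left) and lower (right) in BSO. Red points are the 3 BSO arrays and blue points the 2 untreated contusion arrays; the gray bar spans the 17 other arrays of the series and the black tick is their median. In 5 of the lower genes, among them Fbxo3 and Rcan1, the BSO points lie left of the bar, while in 6 of the higher genes both contusion points do.

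Other probe sets of the ranked genes did not repeat the differences. Of the 30 genes 16 had further probe sets, 23 in all, of which 9 had the same sign as the ranked one and 0 an unadjusted limma p under 0.05 with that sign. Fbxo3 had a brighter probe set that differed by -0.13 and a dimmer one that differed by 0.24. Probe sets of a gene can read different transcript ends, and which one reads the gene's main transcript was not tested.

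The probe set with the smallest p of all carries no gene symbol in the annotation used here. It gave 123.5, 183.2 and 268.7 in BSO arrays and 21.3 and 15.3 in contusion arrays, and the other 17 arrays covered 63.9 to 415.5. Its BSO values lay among those of the rest of the series and its contusion values below them. The difference was 3.34 ± 0.51 (limma, adjusted p = 0.0987), and against the 4 contused groups without BSO it was 0.83 (adjusted p = 0.902). It passed the threshold in 1 of 14 alternatives, the low-signal filter (limma, adjusted p = 0.0255). With log2 of signal plus 32, or with only the compared groups fitted, no probe set came near the threshold.

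The same BSO dose was also given before tempol, which allows the BSO difference to be read in 6 arrays that share none with the comparison above. Between tempol plus BSO and tempol alone 0 of 31042 probe sets (0.0%) had an adjusted p under 0.05 by limma, with 1407 at an unadjusted p under 0.05 (4.53%, of which 2.36% higher and 2.17% lower) and a lowest adjusted p of 0.783. Across the 14217 genes the 2 BSO differences had a Pearson correlation of 0.0504 and the same sign in 7278 (51.2%); genes are not independent replicates and this is a description. The difference between the 2 BSO differences, tested as an interaction, also left 0 probe sets (0.0%) with a lowest adjusted p of 0.496, and 1068 at an unadjusted p under 0.05 (3.44%, of which 1.77% higher and 1.68% lower).

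In this other pair no glutathione gene passed the adjusted test either. Gclc differed by -0.09 ± 0.48, Gclm by 0.25 ± 0.58, Gss by 0.12 ± 0.58 and Slc7a11 by 0.33 ± 0.60, each by less than its standard error. Slc3a2 gave 1900.9, 2453.5 and 2662.3 in tempol plus BSO arrays and 1690.6, 1804.4 and 1448.9 in tempol arrays, without overlap (0.50 ± 0.36, 95% interval -0.25 to 1.25). Cth (0.90 ± 0.75) and Ggt5 (0.88 ± 0.83) were also higher in every tempol plus BSO array, while Dpep1 (-0.93 ± 0.80) and Ggt7 (-0.63 ± 0.47) overlapped. Gsta3 differed by 1.65 ± 0.85 with overlap, against -2.96 ± 0.95 without tempol (interaction by limma, adjusted p = 1.0). The synthesis and supply list median was -0.09 with 7 of 18 members on the same side as without tempol. Of the 30 ranked genes, 11 of the 15 higher and 9 of the 15 lower kept their direction with tempol, against 51.2% of all genes. Of those that kept it, 1 and 2 had an unadjusted limma p under 0.05, against 2.36% of all probe sets higher and 2.17% lower. These were Rpap1 (1.61 ± 0.72), Shc2 (-1.80 ± 0.73) and Gpr135 (-1.23 ± 0.41). Fbxo3 and Herpud1 also had such a p, in the opposite direction (limma, unadjusted p = 0.00714 and 0.0319). Gpr135 gave 109.5, 165.0 and 209.3 in tempol plus BSO arrays and 315.9, 659.7 and 234.3 in tempol arrays, so the groups did not overlap with or without tempol. With tempol, 4.04% of all genes had every tempol plus BSO array below every tempol array and 4.95% above.

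Fbxo3 and Herpud1 stood on opposite sides in the 2 pairs. Fbxo3 gave 203.0, 193.5 and 90.1 in tempol plus BSO arrays and 59.6, 53 and 69.7 in tempol arrays, a difference of 1.34 ± 0.44 against -2.48 ± 0.49 without tempol (interaction by limma, adjusted p = 0.496). Herpud1 gave 130.6, 143.8 and 62.5 in tempol plus BSO arrays and 51.4, 42.6 and 59.4 in tempol arrays, a difference of 1.06 ± 0.46 against -2.21 ± 0.51 (interaction by limma, adjusted p = 1.0). For Fbxo3 tempol plus BSO arrays 1 and 2 were above both untreated contusion arrays and array 3 below them. For Herpud1 arrays 1 and 2 were near the contusion arrays, and array 3 was close to the tempol arrays. Rcan1 kept its direction with a smaller difference, at 188.5, 116.2 and 212.6 in tempol plus BSO arrays and 238.6, 165.8 and 337.9 in tempol arrays (-0.51 ± 0.44). None of these interactions passed after adjustment.

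**Figure D5:**
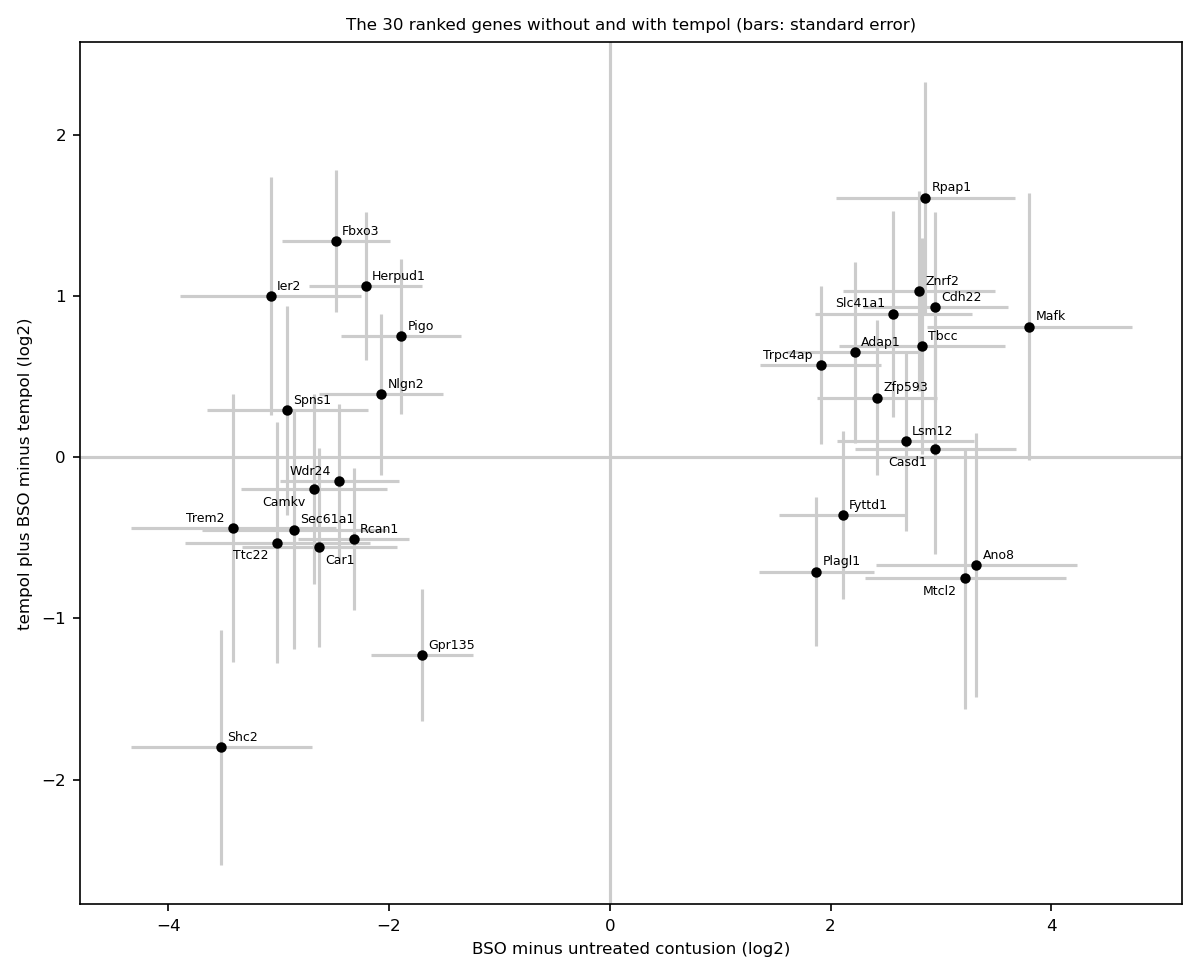
Log2 BSO differences of the 30 ranked genes without tempol (x axis, BSO minus untreated contusion, 3 against 2 arrays) and with tempol (y axis, tempol plus BSO minus tempol, 3 against 3 arrays). Points are genes and bars standard errors. The genes were chosen on the x axis. The direction is the same on the y axis in 11 of the 15 higher and 9 of the 15 lower ones, against 51.2% of all genes. Fbxo3 and Herpud1 lie on opposite sides of 0 in the 2 pairs.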

How the data were processed

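The deposited table gives 1 linear signal intensity per probe set and array, with 1 decimal, and no further unit is stated. RMA is named in the submitters' processing notes, but the deposited values are neither logarithmic nor quantile normalized, and every array has a 2% trimmed mean of 250.0 or 250.1, so arrays were taken as scaled by the authors to a common mean. The number of arrays limits the precision. The table lists 31099 probe sets. Without 57 array controls, 31042 were tested: 20826 name a single gene, 436 name several and 9780 name none. By Entrez number 20758 matched the reference gene table.

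The log2 intensities of all 22 arrays entered 1 limma 3.58.1 fit in R 4.3.3 with 8 group means and eBayes (14 residual and 4.71 prior degrees of freedom, median moderated SD 0.829). Two-sided p-values were Benjamini-Hochberg adjusted across every tested probe set, and 0.05 was the threshold. The fit was tested on simulated data. Values after ± are standard errors. For each of 14217 genes the brightest probe set on average was read. In 33 lists 549 of 614 genes were measured. Named genes are the 15 in each direction with the smallest p (mean signal of at least 100 in the higher group, no overlap), the 3 smallest p of each list, and a panel of glutathione, stress and glial genes, of which Hspa1b matched no probe set. The members, lists and rules were chosen with earlier results of these data known, so no list is independent evidence.

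Alternatives were quantile normalization, log2 of signal plus 32, a low-signal filter at 100, eBayes with trend, a replicate block, array weights, a fit to only the groups compared, one without laminectomy 2 and normal 1 (median correlation with the other arrays 0.667 and 0.685, against 0.725 to 0.785 for the rest), leave-one-out fits and averaging a gene's probe sets. A further alternative, added after seeing the data, took the mean of the contused groups without BSO, untreated contusion included, as reference.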

Additional observations from a re-analysis of the deposited data

How the results depend on the processing

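The differences between BSO and untreated contusion rest on 3 arrays against 2, and the number of arrays and the dim signal of many probe sets limit their precision. None of 31042 probe sets passed limma's test, with Benjamini-Hochberg adjustment, in the comparison as reported, and 1074 had an unadjusted p under 0.05. Where 1 contusion array is left out, the spread of the remaining one is borrowed from the other groups. The values below are differences, BSO minus contusion, on the log2 scale, for settings in which a count, a list median or a direction changed; the cause was not tested. None of the genes named here passed the test in the reported comparison.

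The filter on low signal left 1 probe set past the threshold (the one without a gene symbol, difference 3.34, limma adjusted p = 0.0255), and gave medians of 0.26 for adhesion and endothelial activation, 0.12 for T, B and NK cells, 0.29 for endothelium and pericytes and -0.02 for ependyma. Averaging over a gene's probe sets, the medians were 0.15 for heat shock proteins, 0.10 for p53 and damage response, 0.12 for T, B and NK cells and 0.00 for endothelium and pericytes. Quantile normalization gave 0.05 for Gfap, 0.01 for Anpep and -0.01 for Slc7a11, and array weights gave 0.02 for Ccl2. Another setting, chosen after seeing the data, took the mean of the contused groups without BSO as reference (untreated, clenbuterol, X-ray and tempol). This setting keeps the untreated contusion arrays in the reference, so its values are not independent of them. It left 1 probe set past the threshold (Rcan1, -2.48, limma adjusted p = 0.0472), with medians of 0.40 for cell cycle, -0.19 for cholesterol synthesis, -0.08 for infiltrating and phagocytic macrophages, -0.23 for astrocytes, -0.17 for oligodendrocytes and myelin and -0.07 for Schwann cells and nerve roots. Its differences were -0.03 for Fdps, -0.06 for Gstt1, 0.06 for Spp1, -0.08 for Dynlrb2, -0.02 for Steap4, -0.58 for Mt3, 0.93 for Slc4a1, 0.00 for Gclc, -0.39 for Srxn1, -0.02 for Mt2A, -0.04 for Mbp, -0.14 for Atf3, -0.13 for Abcc1, 0.04 for Ccl2 and 0.78 for Anpep. Without the arrays laminectomy 2 and normal 1, 0 probe sets passed for BSO against contusion (lowest limma adjusted p = 0.168) and 1265 had an unadjusted p under 0.05.

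Leaving out each array in turn gave 0 to 1 probe sets past the threshold for BSO against contusion, the 1 without contusion 1 being another probe set with no gene symbol (4.80, limma adjusted p = 0.00571), and 0 to 1 for tempol plus BSO against tempol, Upk3bl1 without tempol plus BSO 3 (-3.16, adjusted p = 0.0436) and a probe set with no gene symbol without tempol 2 (3.96, adjusted p = 0.016). List medians ranged from -0.29 to 0.03 for NRF2 targets, -0.12 to 0.09 for heat shock proteins, -0.64 to -0.14 for p53 and damage response, -0.19 to 0.07 for chemokines, 0.09 to 0.44 for T, B and NK cells, -0.10 to 0.43 for oligodendrocytes and myelin, 0.00 to 0.59 for neurons, -0.09 to 0.09 for endothelium and pericytes and -0.67 to -0.17 for Schwann cells and nerve roots. Single genes changed sign without 1 array. Without contusion 2 these were, with their ranges over all such fits, Ogn (-0.14 to 2.96), Prdx3 (-0.07 to 2.07), Cd44 (-2.39 to 0.02), Cbs (-0.12 to 1.21), Ggt1 (-0.08 to 0.96), Chac1 (-0.41 to 0.88), Mt1 (-0.95 to 0.47) and Slc7a9 (-0.29 to 0.66). Without contusion 1 they were Cth (-0.10 to 1.72), Vcam1 (-0.02 to 0.77), Hp (-1.91 to 0.26), Nqo1 (-0.63 to 0.04), Lcn2 (-0.04 to 0.89), Ggct (-0.24 to 0.92) and Mt3 (-0.60 to 1.56). Without BSO 1 they were Ndufb6 (-1.53 to 0.02), Hamp (-0.22 to 1.40), Gclm (-0.68 to 0.16), Ggt7 (-0.03 to 0.37) and Ccl2 (-0.26 to 0.26), without BSO 2 Sparc (-1.58 to 0.25) and Mt2A (-0.06 to 0.71), and without BSO 3 Gpx1 (-0.43 to 0.00). More than 1 array alone turned Timp1 (-0.67 to 0.12), Gss (-0.70 to 0.19), Gclc (-0.04 to 0.42), Srxn1 (-0.93 to 1.62), Mbp (-0.29 to 0.57), Oplah (-0.80 to 0.17), Gpx4 (-1.76 to 1.37), Abcc1 (-0.38 to 0.29), Anpep (-0.24 to 0.20) and Slc7a11 (-0.29 to 0.42).

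The BSO and contusion arrays that share a number had deviations correlating at 0.117 and 0.048. For the tempol plus BSO and tempol arrays the values were -0.101, -0.011 and -0.200. Arrays with different numbers were not read this way for comparison, so these values cannot show whether arrays of the same number belong together. With the replicate block, 0 probe sets passed for BSO against contusion (lowest limma adjusted p = 0.358) and 1137 had an unadjusted p under 0.05, the NRF2 targets' median was -0.07, Oplah differed by 0.33 and Gpx4 by 0.05. The block changed no call.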
